A study of Mus musculus with 8 samples.

Results

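The 10 genes described here build and glycosylate mucins. They were chosen by name, with earlier results of these data known: the mucins Muc1, Muc2, Muc4, Muc13 and Muc20, the goblet cell factors Tff3 and Agr2, and the enzymes C1galt1, Gcnt1 and Gcnt3. They are 10 of the 31791 gene names on the array and are read by 13 of its 39429 probes. Muc4, Muc20 and Gcnt1 have a pair of probes each, called probe a (the brighter one) and probe b. The RNA came from IEC10 cells, a single immortalized mouse intestinal epithelial cell line. The methods name the line IEC Mx2Luc, made from a mouse that carried firefly luciferase under the Mx2 promoter, which all groups share. The cells were kept for 21 days on transwell inserts to polarize and then stayed unstimulated (control, 2 arrays, replicates 2 and 3) or received IFN-λ2 at 20 ng/mL (3 arrays) or IFN-β at 500 U/mL (3 arrays) for 9 h. The labels do not say that the arrays of a group come from separate cultures, so the p-values measure the spread between these arrays, which may be technical.

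Mucins are glycoproteins with long stretches of serine and threonine that carry dense O-linked glycans. Muc2 is the secreted, gel-forming mucin of goblet cells, whereas Muc1, Muc4, Muc13 and Muc20 are membrane mucins that line the apical cell surface. Glycan synthesis starts with the transfer of N-acetylgalactosamine to the protein, C1galt1 adds galactose to form the core 1 structure, and Gcnt1 and Gcnt3 add the N-acetylglucosamine that makes the branched core 2 structure.

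After IFN-λ2, the membrane mucin genes Muc4 and Muc20 and both core 2 branching enzymes rose, while Muc1, Muc13 and C1galt1 showed no difference that passed the test. After IFN-β, none of the 10 genes passed the test. Muc2, Tff3 and Agr2 were not well above background on any array. Levels are given in normalized gPS units, the background-subtracted green signal scaled so that the 75th percentile of each array is 1500, with a lower threshold of 15 units. A probe entered the test if it was above 15 units on at least 2 arrays, which held for 9 of the 13 probes and 7 of the 10 genes. A gene was called if its adjusted p from limma was under 0.05, and a gene with several probes is counted by the brighter one.

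**Figure D1:**
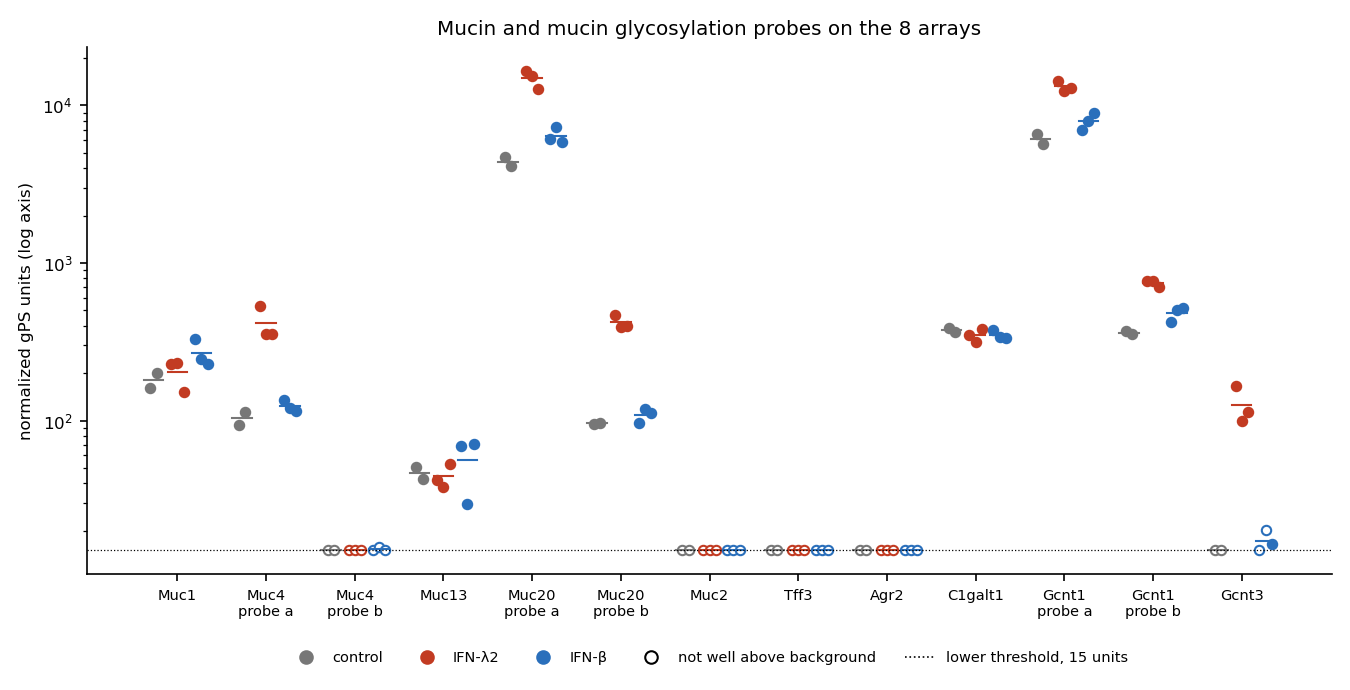
Level of each of the 13 probes in normalized gPS units (log axis) on the 8 arrays, with 1 point per array, a bar at the group mean, and open points where the probe was not well above background. IFN-λ2 arrays lie above all control and IFN-β arrays for Muc4 probe a, both Muc20 probes, both Gcnt1 probes and Gcnt3, and the probes of Muc2, Tff3, Agr2 and Muc4 probe b lie at or next to the lower threshold of 15 units.

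The genes were chosen with earlier results of these data known, so their counts beside the shares of all gene names are a description. Against control, 4 of the 7 tested genes were called higher after IFN-λ2 and 0 lower, where 10.3% of all 20866 tested gene names were called higher and 8.26% lower. All 4 rose by at least 2-fold, which held for 2.79% of all tested gene names. None of the 7 was lower at an unadjusted p under 0.05, by limma or by the methods' t-test, beside 15.7% and 13.9% of all gene names. The methods give thresholds for comparing 2 groups without naming the test, and a plain test with equal variances was taken for it. The median difference over the 7 genes was 1.11 on the log2 scale, beside 0.00 over all 26009 tested probes. After IFN-β, 0 of the 7 genes were called higher and 0 lower with limma, beside 1.47% and 0.196% of all gene names. At an unadjusted p under 0.05, limma gave 2 genes higher (Muc20 and Gcnt1) and 0 lower, beside 7.14% and 4.7% of all gene names. The methods' t-test gave 1 higher and 0 lower, beside 6.43% and 3.83%, with 0 after adjustment. In 5 of the 7 genes every IFN-β array nevertheless lay above both control arrays, beside 15.4% of all gene names, and the median difference of the 7 was 0.26 beside 0.02 over all probes. Of these 5, Gcnt3 had both control arrays at the threshold of 15 units and only 1 of 3 IFN-β arrays well above background, and the other 4 were Muc1, Muc4, Muc20 and Gcnt1. In the direct comparison of the 2 cytokines, 4 of 7 genes were called higher with IFN-λ2 and 0 lower, beside 5.83% of all gene names in each direction, and 3 of these reached 2-fold, beside 1.51%. The comparisons of each cytokine with control share the same 2 control arrays. In these bulk samples, fewer cells of a type and less RNA per cell cannot be told apart.

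**Figure D2:**
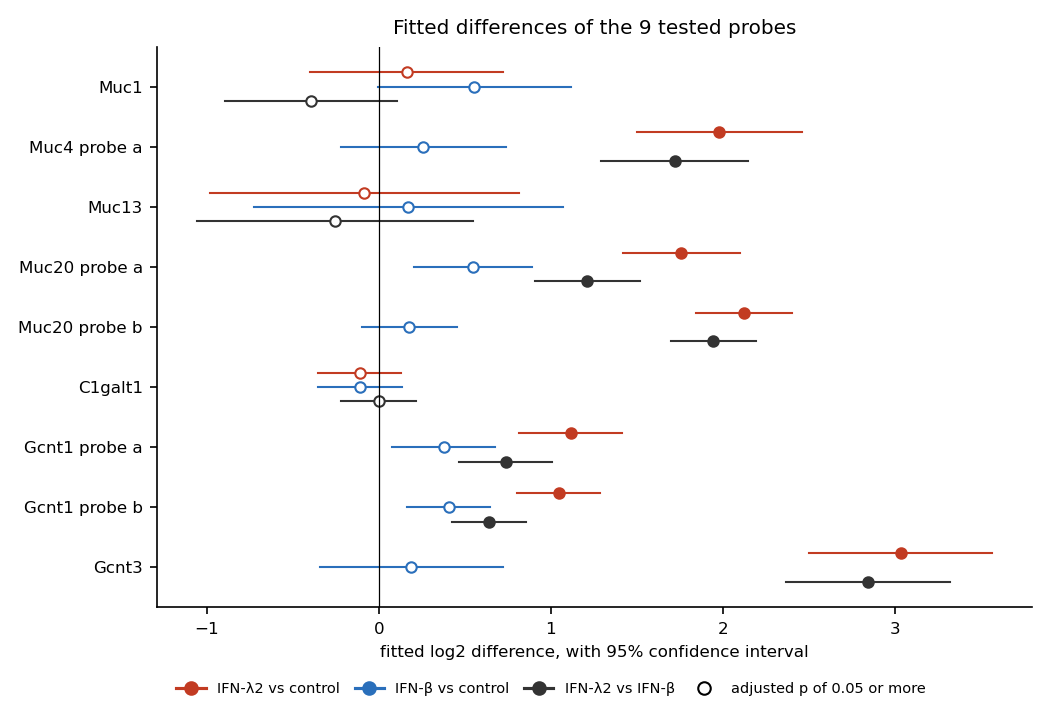
Fitted log2 difference with its 95% confidence interval for the 9 tested probes in the 3 comparisons, where filled points have an adjusted p under 0.05. For Muc4 probe a, both Muc20 probes, both Gcnt1 probes and Gcnt3 the IFN-λ2 comparisons lie above 0, and no IFN-β comparison with control has a filled point. The Gcnt3 values depend on the lower threshold.

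Muc20 encodes a small membrane mucin. Its brighter probe read 4681 and 4099 units on the control arrays, 16545, 15464 and 12745 with IFN-λ2, and 6128, 7245 and 5896 with IFN-β. The 3 groups did not overlap, with IFN-β between control and IFN-λ2. The difference from control was 1.76 ± 0.14 (SE) on the log2 scale after IFN-λ2, a 3.39-fold rise (95% CI 2.67 to 4.29, adjusted p = 0.000428 from limma). IFN-β gave 0.55 ± 0.14, or 1.46-fold (95% CI 1.15 to 1.85, adjusted p = 0.181 from limma). IFN-λ2 exceeded IFN-β by 2.32-fold (95% CI 1.88 to 2.87, adjusted p = 0.00229 from limma). Muc20 probe b is annotated to another transcript accession of the gene and read 95.1 and 96.7 units in control cells, 467, 391 and 398 with IFN-λ2, and 96.6, 118 and 111 with IFN-β. Here only IFN-λ2 stood apart, since the lowest IFN-β array lay between the control arrays. The rise after IFN-λ2 was 4.35-fold (95% CI 3.59 to 5.28, adjusted p = 6.39e-05 from limma). The difference after IFN-β was 1.13-fold (95% CI 0.93 to 1.37, adjusted p = 0.619 from limma). Both probes thus gave the same call in each comparison.

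Muc4 encodes a large membrane mucin that can bind the receptor ErbB2. Its probe a read 93.1 and 114 units in control cells, 536, 356 and 352 with IFN-λ2, and 135, 121 and 115 with IFN-β. The IFN-λ2 arrays lay far above the others, and the lowest IFN-β array lay only just above the higher control array. The rise after IFN-λ2 was 3.95-fold (95% CI 2.83 to 5.50, adjusted p = 0.00114 from limma), and the excess over IFN-β was 3.30-fold (95% CI 2.45 to 4.44, adjusted p = 0.0022 from limma). With the methods' t-test the rise over control had an adjusted p of 0.0635. After IFN-β the log2 difference was 0.26 (95% CI -0.22 to 0.74, adjusted p = 0.676 from limma). Muc4 probe b gave no level: it was at 15 units on every array except IFN-β replicate 2, where it read 15.6, and it was not well above background on any. The Muc4 result therefore rests on probe a alone. 

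Muc4 and Muc20 are neighbours on chromosome 16 and are read from opposite strands, Muc4 from the plus and Muc20 from the minus strand. In the array files (mm9) their probes alternate along the chromosome: Muc4 probe b at chr16:32774896-32774955, Muc20 probe b at chr16:32777512-32777571, Muc4 probe a at chr16:32782278-32782337 and Muc20 probe a at chr16:32786143-32786202. The gaps between successive probes are 2556, 4706 and 3805 bases. Muc4 probe a, the one that rose, thus lies between the 2 Muc20 probes. How much transcript of the opposite strand adds to either signal was not tested. The place of the probes within exons or untranslated regions was not analysed here.

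The sequences before the starts of the 2 genes are shown because both rose with the same cytokine. Of the 10 genes, 8 have an entry among the promoters of RefSeq used here (GRCm38.p6), 11 promoters in all, each spanning 250 bases before to 50 after an annotated start. Tff3 and Gcnt3 have none. Each was searched on both strands for the interferon-stimulated response element as GAAANNGAAA, the gamma-activated site as TTCNNNGAA, the forkhead core TGTTTAC and the TATA box TATAAA. The forkhead and TATA searches were added after the expression values had been seen. Among 32851 RefSeq promoters of the same length, 3.44% hold the first, 8.3% the second, 3.65% the third and 13.62% the fourth. The Muc4 promoter holds a TATA box that begins 36 bases before the start. The same letters begin 31 bases before the start of Muc1, which was not called, and 174 bases before that of Muc2, which was not well above background. The Muc20 promoter holds a forkhead core on its minus strand that begins 248 bases before the start. No interferon-stimulated response element and no gamma-activated site with these letters is in either window. The 250 bases before each start follow, 5′ to 3′ on the strand of the gene, with the motif matches in capitals. They lie at chr16:32735636-32735885 on the plus strand and at chr16:32797436-32797685 on the minus strand.
Muc4: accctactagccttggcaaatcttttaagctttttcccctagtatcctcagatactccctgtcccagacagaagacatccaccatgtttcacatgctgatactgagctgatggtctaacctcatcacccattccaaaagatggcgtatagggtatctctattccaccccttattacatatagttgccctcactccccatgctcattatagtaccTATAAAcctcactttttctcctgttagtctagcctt
Muc20: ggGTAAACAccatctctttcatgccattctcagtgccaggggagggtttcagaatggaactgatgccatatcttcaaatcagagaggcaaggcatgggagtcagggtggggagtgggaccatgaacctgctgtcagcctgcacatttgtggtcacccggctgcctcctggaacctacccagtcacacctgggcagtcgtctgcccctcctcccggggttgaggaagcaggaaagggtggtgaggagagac

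Muc1 encodes the widely expressed membrane mucin of epithelia. It read 161 and 200 units in control cells, 228, 233 and 153 with IFN-λ2, and 328, 247 and 227 with IFN-β. The IFN-λ2 arrays spanned the control arrays, whereas all IFN-β arrays lay above them. For IFN-β the log2 difference from control was 0.56 (95% CI -0.01 to 1.12, unadjusted p = 0.0517 and adjusted p = 0.422 from limma). For IFN-λ2 it was 0.16 (95% CI -0.40 to 0.72, adjusted p = 0.674 from limma). IFN-λ2 minus IFN-β was -0.39 (95% CI -0.90 to 0.11, adjusted p = 0.299 from limma).

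Muc13 encodes a membrane mucin that is abundant in the intestine. It read 50.6 and 42.7 units in control cells, 41.8, 38.1 and 53.0 with IFN-λ2, and 68.7, 29.6 and 70.5 with IFN-β. The IFN-β arrays held both the lowest and the highest value. The intervals are accordingly wide, from -0.98 to 0.81 on the log2 scale for IFN-λ2 minus control (adjusted p = 0.902 from limma) and from -0.73 to 1.07 for IFN-β minus control (adjusted p = 0.905 from limma). A change of up to about 1.76-fold upwards after IFN-λ2 lies within its interval. Of the 11 promoters of the 10 genes, the gamma-activated site letters are in 1, a Muc13 promoter, where TTCTTGGAA begins 140 bases before the start. It is shown because it holds these letters in a gene that did not pass the test, with the match in capitals and the 250 bases before the start at chr16:33793787-33794036 on the plus strand of GRCm38.p6.
Muc13: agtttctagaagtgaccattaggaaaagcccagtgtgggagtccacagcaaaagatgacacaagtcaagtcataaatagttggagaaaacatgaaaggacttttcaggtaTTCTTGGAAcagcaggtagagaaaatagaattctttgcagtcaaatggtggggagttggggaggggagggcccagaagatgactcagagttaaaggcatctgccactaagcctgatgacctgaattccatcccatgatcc

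The secretory genes gave no level. Muc2, Tff3, a trefoil peptide that goblet cells release with mucin, and Agr2, a disulfide isomerase needed for Muc2 folding, each stayed at 15 units on all 8 arrays. None was well above background on any array, and no fold is given. Of the 10 goblet cell markers on the array, 6 were not well above background on any array (Muc2, Tff3, Agr2, Zg16, Spink4 and Retnlb), and only Spdef was well above background on all. The summed level of these 10 markers was 246 to 254 units on the control arrays, 259 to 313 with IFN-λ2 and 248 to 262 after IFN-β, and 0 of them were called in any comparison. Spdef had means of 115, 124 and 115 units in control, IFN-λ2 and IFN-β cells, and every other marker had a control mean of 15 units. The sums thus hold mainly Spdef and threshold values. Fcgbp, a goblet cell protein that binds IgG, was well above background on 3 of 3 IFN-λ2 arrays and on none of the others, with means of 15, 27.7 and 16.3 units in control, IFN-λ2 and IFN-β cells, and was not called. Clca1 was well above background on 2 arrays and Atoh1 on 1.

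C1galt1, the core 1 galactosyltransferase, read 388 and 363 units in control cells, 349, 315 and 380 with IFN-λ2, and 375, 337 and 333 with IFN-β. The groups of both cytokines overlapped the control arrays. The difference from control was -0.11 on the log2 scale after IFN-λ2 (95% CI -0.36 to 0.13, adjusted p = 0.491 from limma) and -0.11 after IFN-β (95% CI -0.35 to 0.13, adjusted p = 0.735 from limma). In linear terms the intervals run from 0.78-fold to 1.10-fold for both cytokines, which makes C1galt1 the most tightly bounded of the genes that did not pass the test.

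Gcnt1, the core 2 branching enzyme of many cell types, makes the next step from the same core 1 glycan. Its probe a read 6569 and 5677 units in control cells, 14366, 12401 and 12987 with IFN-λ2, and 7008, 7989 and 8907 with IFN-β. The 3 groups did not overlap. The rise after IFN-λ2 was 2.17-fold (log2 difference 1.11 ± 0.13 SE, 95% CI of the fold 1.76 to 2.67, adjusted p = 0.00178 from limma). After IFN-β the difference was 1.30-fold (95% CI 1.05 to 1.60, adjusted p = 0.303 from limma). IFN-λ2 exceeded IFN-β by 1.67-fold (adjusted p = 0.00892 from limma). Probe b, 60 bases of the same transcript at another place, read 368 and 355 units in control cells, 768, 766 and 707 with IFN-λ2, and 424, 502 and 516 with IFN-β. It showed the same order with no overlap. Its rise after IFN-λ2 was 2.06-fold (adjusted p = 0.000917 from limma), and its difference after IFN-β was 1.32-fold (adjusted p = 0.158 from limma). The probes lie at chr19:17400787-17400846 and chr19:17403360-17403419 on the minus strand of mm9. RefSeq gives 3 promoters for Gcnt1, and 1 of them holds matches, both to the TATA box. The first begins 244 bases before the start on the plus strand of the promoter, and the second begins 29 bases before it, on the opposite strand. The 250 bases before this start, at chr19:17372845-17373094 on the minus strand of GRCm38.p6, are shown for the gene whose 2 probes agreed most closely.
Gcnt1: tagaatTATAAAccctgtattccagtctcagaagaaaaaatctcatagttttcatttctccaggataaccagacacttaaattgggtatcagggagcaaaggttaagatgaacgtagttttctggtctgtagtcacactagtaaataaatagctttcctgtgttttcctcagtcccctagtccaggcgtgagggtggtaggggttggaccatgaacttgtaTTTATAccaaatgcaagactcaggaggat

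Gcnt3 encodes the core 2 and core 4 branching enzyme of mucin-secreting tissues. It stood at 15 units on both control arrays, read 166, 98.7 and 114 with IFN-λ2, and 15.1, 20.1 and 16.5 with IFN-β. The scanner software marked it as well above background on none (0 of 2) of the control arrays, on 3 of 3 with IFN-λ2 and on 1 of 3 with IFN-β (replicate 3). The lowest IFN-λ2 value was thus several times the highest IFN-β value. Where a probe is not well above background, its level is bounded by the dimmest probe of that array that is, or by its own signal if that is brighter. On this basis the mean level of Gcnt3 after IFN-λ2 was at least 6.96-fold that of control cells. It was at least 5.70-fold that after IFN-β. The fitted differences had an adjusted p of 0.000274 and 0.000539 from limma. Such bounds, here and for the genes below, compare group means and leave out the spread between arrays. The confidence intervals of the fitted folds began lower, at 5.67 against control and 5.17 against IFN-β. Both control arrays were set to the threshold, so the test saw no spread between them. No fold is given for IFN-β against control. The fitted log2 difference from control, 3.04, depends on the lower threshold: it was 3.78 with a threshold of 1 unit, 1.56 with normexp background correction and 1.30 with a threshold of 50 units, and the call held each time. The probe lies at chr9:69879436-69879495 on the minus strand of mm9.

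A slide carried the arrays of 1 replicate number. For the 6 probes called between the cytokines, the lowest IFN-λ2 array lay above the highest IFN-β array. Their order within a slide was thereby fixed, and only the size of the difference is informative. Muc1 had the opposite order, with IFN-λ2 minus IFN-β at -0.53, -0.083 and -0.57 on slides 1, 2 and 3. For Muc13 and C1galt1 the sign changed between slides. For Muc4 probe a the log2 difference between the 2 arrays of a slide was 1.98, 1.56 and 1.62 on slides 1, 2 and 3, and for Muc20 probe a 1.43, 1.09 and 1.11. For Gcnt1 probe a it was 1.04, 0.63 and 0.54. Slide 1 gave the largest difference for each of these 3 probes, and slide 1 holds no control array. For Gcnt3 both arrays were well above background on slide 3 alone, with a difference of 2.78, since the IFN-β arrays of slides 1 and 2 were not. Against the control array of the same slide, IFN-λ2 gave 3.30-fold and 3.11-fold for Muc20 probe a, 3.83-fold and 3.09-fold for Muc4 probe a, and 1.89-fold and 2.29-fold for Gcnt1 probe a, on slides 2 and 3. Each group kept 1 position on every slide, so that position and treatment cannot be told apart.

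The methods of the study call a gene predominantly induced by IFN-λ2 if its fold over control exceeds the IFN-β fold by more than 4.5 times and the IFN-β fold is under 2. By fitted folds, Gcnt3 had a ratio of 7.19, a value that rests on arrays at the threshold. It met the definition with that threshold, but not with normexp background correction (ratio 2.81) or with a threshold of 50 units (ratio 2.46). A threshold of 50 units lies above every IFN-β value of Gcnt3, and normexp added an offset of 50, so both settings lower ratios of dim signal. The bound given above for the group means, IFN-λ2 over IFN-β, was 5.70-fold. Muc20 probe b had a ratio of 3.85, Muc4 probe a 3.30, Muc20 probe a 2.32 and Gcnt1 probe a 1.67, all under the limit, each with an IFN-β fold under 2. The genes that rose after IFN-λ2 thus spread over a range of ratios.

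The genes whose pattern over the 8 arrays was most like that of Gcnt3 were found by the root mean square distance between log2 values centred on each probe's mean. They were Dnahc7b, an axonemal dynein heavy chain, with a distance of 0.14, Gsdmc3, a gasdermin, with 0.22, Tspan1, a tetraspanin, with 0.24, Scnn1a, a subunit of the epithelial sodium channel, with 0.24, and Anxa13, an annexin of the intestinal epithelium, with 0.25. Their fitted log2 differences from control after IFN-λ2 were 2.92, 2.77, 2.90, 2.81 and 3.34. The distances share the arrays and are a description. Dnahc7b, Gsdmc3 and Anxa13, like Gcnt3, were not well above background on all control arrays. Dnahc7b and Gsdmc3 were well above background on 0 of 3 IFN-β arrays, and Anxa13 on 1 of 3. For these 3 genes and Gcnt3 the distances and differences therefore include values at or near the threshold, which have no order. Tspan1 and Scnn1a were well above background on every array.

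Beside the 10 genes, 71 further genes listed for the mucin pathway were tested in 7 lists: other mucins, goblet and secretory genes, and the enzymes and transporters of initiation, branching, chain extension, capping and sugar supply. Whether each listed enzyme acts on mucins, rather than on other glycans, was not tested. After IFN-λ2, 9 of the 71 were called higher and 15 lower, beside 10.3% and 8.26% of all tested gene names, with a median difference of 0.00 on the log2 scale. By at least 2-fold, 4 were higher and 1 lower, beside 2.79% and 1.19% of all gene names. The count of lower genes depended on single arrays and on the background correction: it was 6 and 7 without control replicate 2 and 3, 8 and 9 without IFN-λ2 replicate 1 and 2, and 7 with normexp. The shares of all gene names under these settings are not given, so the fall is not shown to be particular to these genes. After IFN-β, 0 of 71 were called with limma in either direction, and 4 were higher and 5 lower at an unadjusted p under 0.05, beside 7.14% and 4.7% of all gene names. The methods' t-test gave 0 after adjustment, and 2 higher and 3 lower without it, beside 6.43% and 3.83%. IFN-λ2 exceeded IFN-β in 8 and lay below it in 10, beside 5.83% of all gene names in each direction.

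**Figure D3:**
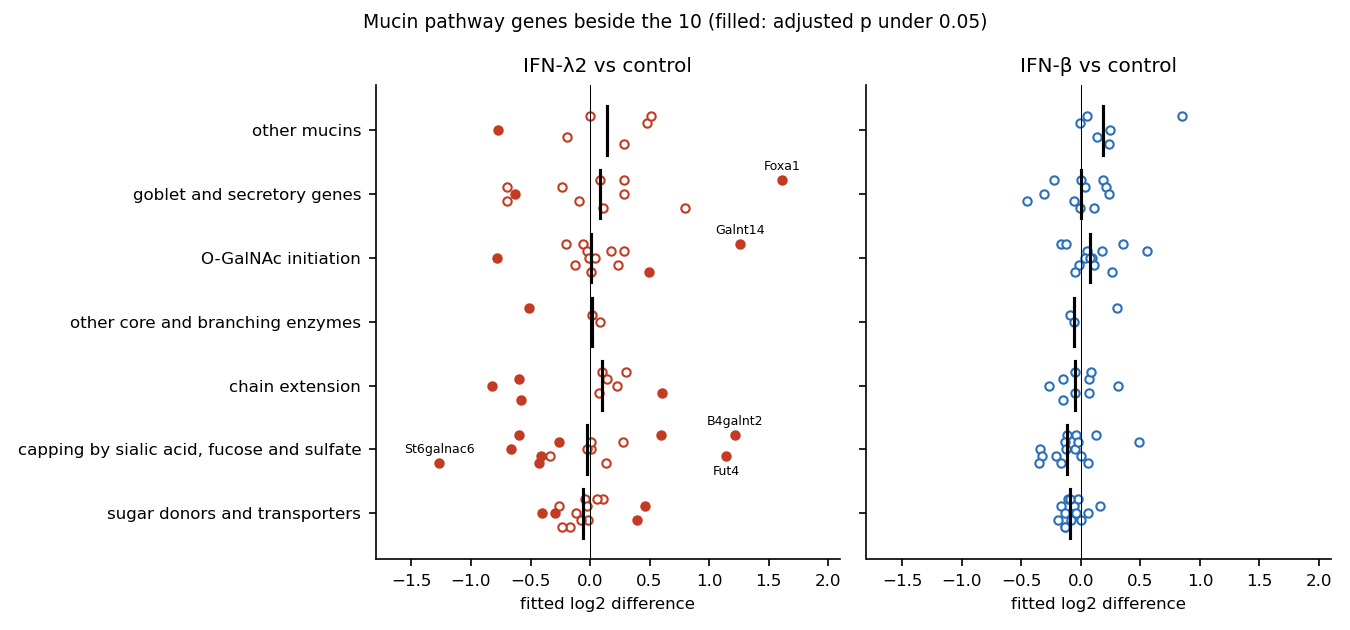
Fitted log2 difference from control of the 71 further pathway genes by list, after IFN-λ2 (left) and IFN-β (right), with 1 point per gene, filled where the adjusted p was under 0.05, and a bar at each list's median. Foxa1, Galnt14, B4galnt2 and Fut4 rose and St6galnac6 fell by at least 2-fold after IFN-λ2, and no point is filled after IFN-β.

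Among the 6 other mucins tested, 0 were higher and 1 lower after IFN-λ2. This was Muc3, an intestinal membrane mucin, at 56.2 ± 0.0283 units in control cells (SD, n = 2), 33.3 ± 5.52 after IFN-λ2 (n = 3, 2 of 3 arrays well above background) and a mean of 67.2 after IFN-β (n = 3). It was at least 1.59-fold lower after IFN-λ2 than in control cells (adjusted p = 0.0281 from limma) and at least 1.88-fold lower than after IFN-β (adjusted p = 0.0101 from limma). Both differences rest on dim signal. The call against control was lost with the replicate block (adjusted p = 0.0824 from limma) and without either control array or IFN-λ2 replicate 1 or 2 (adjusted p from 0.0523 to 0.116 from limma). With normexp the log2 difference was 0.055 against control and -0.078 against IFN-β, neither past the test.

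Among the 11 goblet and secretory genes tested, 1 was higher and 1 lower after IFN-λ2. The higher one was Foxa1, a forkhead transcription factor of endodermal epithelia, at 607 ± 113 units in control cells (SD, n = 2), 1850.0 ± 258 after IFN-λ2 (n = 3) and 514 ± 37.0 after IFN-β (n = 3). Its rise was 3.05-fold (adjusted p = 0.000865 from limma), and it exceeded IFN-β by 3.58-fold (adjusted p = 0.000661 from limma). With the methods' t-test the rise over control had an adjusted p of 0.0565. The lower one was Pdia3, a disulfide isomerase of the endoplasmic reticulum, which fell by 0.63 on the log2 scale (adjusted p = 0.0123 from limma), a call that was lost without control replicate 2 or 3 (adjusted p = 0.0577 and 0.0628 from limma).

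Of 13 tested genes for the first sugar, 2 were higher and 1 lower after IFN-λ2. Galnt14, an N-acetylgalactosaminyltransferase, rose 2.40-fold, from 284 ± 30.0 units (SD, n = 2) to 681 ± 51.6 (n = 3, adjusted p = 0.00313 from limma), while after IFN-β it read 366 ± 65.8 (n = 3). Galnt3 rose 1.41-fold (adjusted p = 0.0129 from limma, and 0.0672 without control replicate 2). The lower gene, printed as Galntl4 on the array and now named Galnt18, fell by 0.78 on the log2 scale (adjusted p = 0.00613 from limma). Of the 3 tested core and branching genes beside the 10, B3gnt6, the core 3 synthase, was lower, by at least 1.29-fold (adjusted p = 0.0348 from limma), and the other two did not pass. B3gnt6 was well above background on 2 of 3 IFN-λ2 arrays, its call was lost without any 1 of the control or IFN-λ2 arrays or without IFN-β replicate 2 (adjusted p from 0.0534 to 0.151 from limma), and its log2 difference was 0.090 with normexp. Core 3 is the alternative to the core 1 structure on which Gcnt1 acts.

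Of the 9 tested genes for chain extension, 1 was higher (B4galt6) and 3 lower (B3gnt8, B4galt2 and B4galt4) after IFN-λ2, all by less than 2-fold. Of the 15 tested capping genes, 3 were higher and 6 lower. B4galnt2, which completes the Sda and Cad antigen of the gut, rose 2.33-fold, from 497 ± 26.3 units (SD, n = 2) to 1169 ± 210 (n = 3, adjusted p = 0.00447 from limma), and it exceeded IFN-β by 2.13-fold (adjusted p = 0.00668 from limma). Both calls were lost with the methods' t-test (adjusted p of 0.076 and 0.0576). Fut4, a fucosyltransferase of the Lewis X epitope, rose 2.21-fold, from 33.7 ± 0.829 (SD, n = 2) to 74.7 ± 5.96 units (n = 3), with an adjusted p of 0.00212 from limma. Fut4 was at least 2.77-fold above IFN-β (adjusted p = 0.000908 from limma), where 1 of 3 IFN-β arrays was well above background. St6galnac6, a sialyltransferase, fell from 1181 ± 116 (SD, n = 2) to 490 ± 19.2 units (n = 3), a 2.40-fold decrease (adjusted p = 0.000584 from limma), and read 927 ± 99.7 after IFN-β (n = 3). Of the 14 tested genes for sugar donors and transporters, 2 were higher and 2 lower after IFN-λ2, none by 2-fold.

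Several facts of the whole series stand beside these results. The response controls Mx2, Ifit1, Isg15 and Usp18, classical interferon-stimulated genes, were higher in 4 of 4 cases with each cytokine, by 13.5-fold to 21.9-fold after IFN-λ2 and by 9.94-fold to 18.6-fold after IFN-β. Of 8 epithelial markers, 7 were well above background on all arrays and Cdx2 on none, with sums of 302030.0 to 317821 units on the control arrays, 342517 to 367792 after IFN-λ2 and 304758 to 348654 after IFN-β, and 2 were called after IFN-λ2. The summed level of the 8 enterocyte markers was 81648 to 97654 units on the control arrays, 144659 to 151484 after IFN-λ2 and 101075 to 110645 after IFN-β, mostly from Krt20. Of these 8, 3 were well above background on all arrays, Apoa1 and Apoa4 on none, and 4 were called after IFN-λ2. The summed Paneth list was at 433 to 575 units on the control arrays and at 476 to 512 after IFN-β, but at 4570 to 6595 after IFN-λ2, through Mmp7. The part of the epithelial, enterocyte and Paneth markers in the rise of Muc4, Muc20, Gcnt1 and Gcnt3 was not tested. None of the 7 stromal markers was well above background on all arrays, with sums of 141 to 283 units over all arrays, which include markers at the lower threshold. Of the 5 immune markers, 3 were well above background on all arrays, led by Itgam, with sums of 6138 to 8642 units in control cells, 2371 to 3946 after IFN-λ2 and 2989 to 11046.0 after IFN-β, and 0 of the 5 were called. The factors that scaled the arrays lay between 0.691 and 0.775, between 20991 and 24252 probes per array were well above background, and no probe was saturated. The small number of arrays limits the precision of every value.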

How the data were processed

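The members and the gene lists were chosen with earlier results of these data known. The authors scanned Agilent arrays of 1 color with Feature Extraction 10.7.3.1, which the submitters' processing notes also name, and deposited the intensity of each feature per array, from which the software had subtracted the background. They also deposited a table of processed intensity values, used here as an alternative. From the scanner output, flagged, outlying or uneven features (pixel coefficient of variation above 0.5, or outside 1.42 times the interquartile range of on-chip copies) were left out. Each probe's geometric mean was multiplied by an array factor that brings the 75th percentile to 1500, values under 15 units were replaced by 15, and log2 was taken. Probes entered the test if they exceeded 15 units on at least 2 arrays (26009 of 39429). With limma 3.58.1 (R 4.3.3), a mean per group was fitted over all 8 arrays, with Benjamini-Hochberg adjustment over the tested probes at 0.05. Python 3.11.15 with pandas 2.3.3 served for the tables. The fits were tested on simulated data.

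Probes were taken by the gene name in the scanner files, all probes of each of the 10 genes, and the lists by current or older names. Named beside them are list genes called with at least 2-fold change (at most 5 per list and comparison), the 5 genes most like the member with the largest called change, and 4 response controls. Genes named without a 2-fold change (Pdia3, Galnt3, Galnt18, B3gnt6, B3gnt8, B4galt2, B4galt4, B4galt6) and the cell type markers singled out were chosen after their values were seen. The methods' group definition and the promoter motifs are descriptions.

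Arrays were grouped by their labels, in which the controls are replicates 2 and 3. Replicate number and slide are the same block. IFN-λ2 and IFN-β arrays of the same number deviated together from their group means, with correlations across probes of 0.184, 0.283 and 0.316, so that this block pairs them. Between control arrays 2 and 3 and the arrays of the same number, the correlations were 0.019 and 0.0013 for IFN-λ2. For IFN-β they were 0.100 and -0.051, so a pairing with control was not seen. The main fit has no block. Alternatives were normexp, quantile normalization, other thresholds and filters, the deposited table, the replicate block, all features kept, each array left out, only the groups compared, a variance trend, the methods' t-test and any probe per gene. The methods state thresholds for 2 groups but not the test, so equal variances were assumed here.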

Additional observations from a re-analysis of the deposited data

Results flagged for a closer look

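The effects of the 2 cytokines differed by limma's test of IFN-λ2 against IFN-β for 6 of the 9 tested probes, which is what singles these results out. By gene, these are 4 of the 7 tested, beside 5.83% of all gene names called in each direction. The log2 difference, IFN-λ2 minus IFN-β, was 1.72 for Muc4 probe a (adjusted p = 0.0022), 1.21 for Muc20 probe a (adjusted p = 0.00229) and 1.95 for Muc20 probe b (adjusted p = 0.000251). For Gcnt1 it was 0.74 with probe a (adjusted p = 0.00892) and 0.64 with probe b (adjusted p = 0.00663). For Gcnt3 the fitted value was 2.85 (adjusted p = 0.000539), with 2 of the 3 IFN-β arrays not well above background. Each of these probes was higher on all 3 IFN-λ2 arrays than on all 3 IFN-β arrays. The share of all probes that did so is not given, so this is a description.

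Among the 71 further pathway genes the same test passed for 8 that were higher and 10 that were lower with IFN-λ2, beside 5.83% of all gene names in each direction. The 6 given here are those whose fitted change in a called comparison was 2-fold or more at least once. Foxa1 gave 1.84, Fut4 1.47, B4galnt2 1.09 and Galnt14 0.91 on the log2 scale, higher with IFN-λ2. Muc3 gave -1.02 and St6galnac6 -0.91, lower with IFN-λ2. Fut4 was well above background on 1 of 3 IFN-β arrays, which makes it at least 2.77-fold higher with IFN-λ2. Muc3 was well above background on 2 of 3 IFN-λ2 arrays, which bounds it at 1.88-fold lower or more, so that a 2-fold change is not shown. With normexp its log2 difference was -0.078 (adjusted p = 0.824 from limma).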

How the results depend on the processing

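Of 540 values of the 9 tested probes under the alternatives, 526 kept their direction and their side of the threshold. The counts of 4, 0 and 4 genes higher stayed at these values under all alternatives and without any single array, except under the methods' t-test. That test, at an unadjusted p under 0.001 and a 2-fold change, gave 0 genes higher than control with IFN-λ2 and 1 higher than with IFN-β, and with adjustment in place of the unadjusted p 3 and 3, where limma with a 2-fold change gave 4 and 3. Without a 2-fold change, the adjusted test gave 3 and 4. Muc4 probe a, 1.98 on the log2 scale against control, then had an adjusted p of 0.0635. With the replicate number as a block, no call of the 10 genes changed: the block gave 4, 0 and 4 genes, and 1.74 for Muc20 probe a and 2.97 for Gcnt3 in IFN-λ2 minus control. The sign turned only for Muc13 and C1galt1, which were called in none of the settings. For IFN-λ2 minus control, Muc13 gave 0.14 with normexp and 0.019 with a threshold of 50 units, and C1galt1 gave 0.058 with normexp. For IFN-λ2 minus IFN-β, normexp gave 0.11 for Muc13 and 0.086 for C1galt1, and C1galt1 gave 0.014 with quantile normalization and 0.011 with the deposited table. Leaving out 1 array moved Muc13 between -0.22 and 0.039 for IFN-λ2 minus control and between -0.044 and 0.58 for IFN-β minus control, and C1galt1 between -0.068 and 0.068 for IFN-λ2 minus IFN-β. For Gcnt3, IFN-λ2 minus control ranged from 1.30 to 3.78 and IFN-λ2 minus IFN-β from 1.30 to 3.00 over the alternatives, left-out arrays included. The ratio of its folds, recomputed after the data were seen, ranged from 2.46 to 8.03. Of 380 values of 10 named pathway genes, computed under alternatives added after the data were seen, 344 kept direction and call. The 2 that reversed, with normexp, were 0.055 for Muc3 and 0.090 for B3gnt6 in IFN-λ2 minus control. With the methods' t-test, 3 pathway genes were higher and 5 lower than control with IFN-λ2, in place of 9 and 15. No share of all gene names is given beside these counts or beside the normexp count below. Among the 10 named pathway genes followed under the alternatives, the methods' t-test lost the calls of Muc3, Foxa1, Galnt3, Galnt18, B3gnt6 and B4galnt2 against control and of Muc3, Galnt14 and B4galnt2 against IFN-β (adjusted p from 0.0565 to 0.127). B3gnt8, B4galt2, B4galt4 and B4galt6 were not followed gene by gene. Against IFN-β, normexp gave 3 lower in place of 10. The cause was not tested. Signal near background limits Gcnt3, Muc13, Muc3 and Fut4, and Muc2, Tff3, Agr2 and Muc4 probe b could not be tested.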
